A study of Mus musculus with 47 samples.

Results

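Medullary thymic epithelial cells (mTECs) mature from cells with low surface MHC class II (mTEClo) to cells with high surface MHC class II (mTEChi), and the step from mTEClo to mTEChi in mice that lack Aire is described here. The members are the 8 adult AireKO libraries of the 47 libraries in the study, 4 labelled mTEChi and 4 labelled mTEClo, and mTEChi was compared with mTEClo by replicate number across 19301 genes, with the mitochondrially encoded genes left out. RNA sequencing was run on cells of the mouse thymus sorted as CD45-negative, EpCAM-positive and Ly51-negative, so the gate took epithelial cells and left out most haematopoietic and cortical epithelial cells. The comparison asks which changes of mTEC maturation take place without Aire, and the 15 adult WT libraries, 7 mTEChi and 8 mTEClo, served to show where AireKO differed.

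All mice were C57BL/6. The AireKO libraries came from male mice, replicates 1 and 2 of each fraction at 5 weeks of age and replicates 3 and 4 at 6 weeks. The AireKO label gives no allele and no zygosity, and both AireKO fractions carry the same label. The WT libraries came from mice of both sexes at 4 or 5 weeks. The labels do not say whether replicates were separate animals or pools, so p-values measure only the spread between these libraries, which may be technical. Libraries were also compared by chi-square per gene, where counting error alone gives about 1. In mTEChi AireKO it was 1.34 (replicates 1 and 2) and 1.28 (3 and 4) within an age, and 4.00 to 6.39 across ages. In mTEClo AireKO it was 1.62 and 3.99 within an age, and 5.58 to 11.2 across ages. A fraction's 4 libraries may therefore hold fewer than 4 independent units.

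Aire is a nuclear regulator made by mature mTECs, through which these cells transcribe genes of many other tissues and show the products to developing T cells. Maturation of mTECs is driven by receptors of the TNF receptor family, chiefly RANK and CD40, that feed the NF-kB pathway, and mature mTECs present antigen on MHC class II together with costimulatory ligands. The mTEClo fraction is mixed: it holds immature and basal cells, cells that secrete the chemokine CCL21, and mimetic cells, which are mTECs that take on the programme of a peripheral cell type such as the tuft cell.

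The libraries held 1639231 to 3938588 counts in mTEClo AireKO and 2528049 to 3106026 in mTEChi AireKO. Levels are given as CPM, counts scaled to a library total of 1000000 after TMM normalization, and changes as log2 fold change of mTEChi over mTEClo with its SE. A gene was called, and is said to have risen or fallen, at an adjusted p under 0.05 in edgeR's quasi-likelihood test and a change of at least 2-fold. Before the results, 1 feature of the files has to be set out: the 37 mitochondrially encoded genes had 0 counts in 6 of the 8 libraries, namely every mTEChi AireKO library and the 6-week mTEClo AireKO pair, whereas the 5-week mTEClo AireKO pair had 6225 and 6178 and the WT libraries 7385 to 10339. The 2 kinds of library therefore meet within pairs 1 and 2, while pairs 3 and 4 lie within 1 kind. Among the genes with clear counts in 1 kind, Med10 and Gm45638 were at 0 in all 6 libraries without mitochondrial counts, and Ccl19, Ccl19-ps1 and Gm28043 had counts only there, so no fold change is given for these 5 genes. In mTEClo AireKO, library kind, age and replicate number cannot be told apart.

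Aire itself was read first. It lay at 7.55, 3.11, 0 and 0.243 CPM in mTEClo AireKO replicates 1 to 4 and at 38.6, 38.8, 21.2 and 16.9 CPM in mTEChi AireKO, against 814 ± 54.6 CPM (SD, n = 7) in mTEChi WT. The mTEChi libraries lay above every mTEClo library and far below WT, and the log2 fold change with maturation was 3.75 ± 0.65 (SE, with an edgeR adjusted p of 1.65e-05). A count over the whole gene includes any transcript of the disrupted locus (chr10:78030022-78043610, minus strand, GRCm38), and the part deleted is not in the labels, so the remaining counts do not bear on Aire protein. Epithelial markers were read in both fractions. Epcam, the adhesion molecule by which the cells were sorted, averaged 247 ± 13.3 CPM in mTEClo and 221 ± 16.4 CPM in mTEChi (SD, n = 4 each). Foxn1, the master regulator of thymic epithelium, rose by 1.40 on the log2 scale. Of 9 markers of thymic epithelium, 3 rose and 2 fell, the basal keratins Krt5 and Krt14 described below, with a median of 0.03. Of the 11 markers of mature mTECs, 7 rose and none fell.

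Maturation without Aire changed a large part of the transcriptome. Of 19301 genes tested, 6765 (35.0%) were called, 3558 (18.4%) higher and 3207 (16.6%) lower in mTEChi. These shares are the background for every count of AireKO risers and fallers in a list below. The 4 mTEChi libraries lay above all 4 mTEClo libraries for 4731 genes (24.5%) and below them for 4350 (22.5%). Falls were steeper than rises at the far end: 402 genes fell and 304 rose by at least 16-fold. By gene type, 16.8% of protein-coding genes rose and 16.1% fell, whereas 41.9% of 573 lincRNA genes rose and 16.6% fell. Antisense genes rose in 24.9% and processed pseudogenes in 35.3% of cases, and both classes are uncertain here because counting ignored strand and because pseudogenes share sequence with their parent genes.

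**Figure D1:**
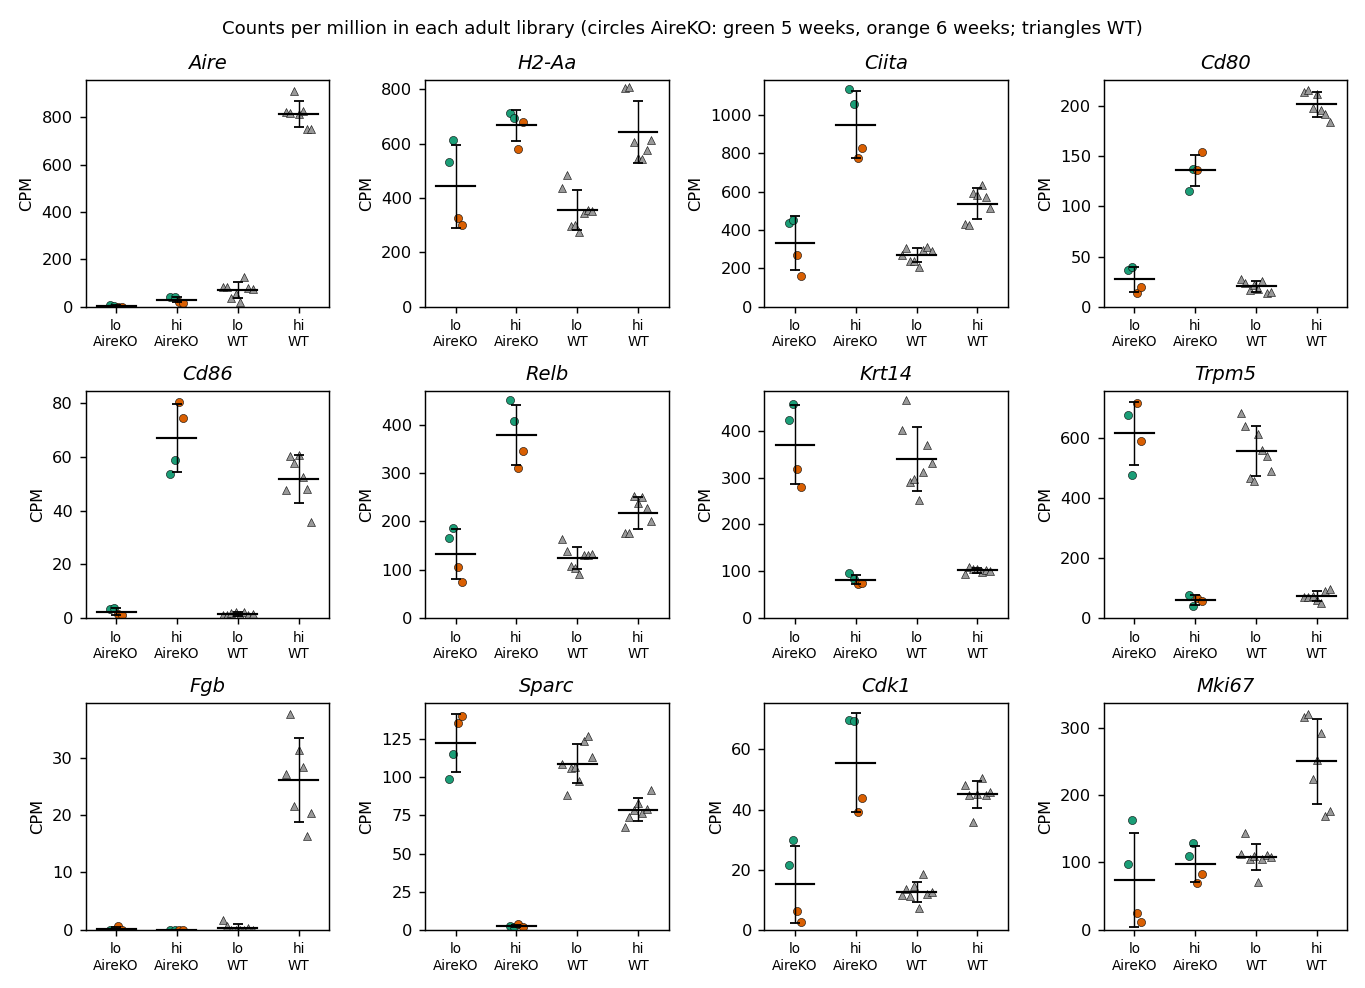
CPM of 12 genes in each adult library on a linear axis, with AireKO libraries as circles coloured by age (5 or 6 weeks), WT libraries as triangles, lines for group means and whiskers for SD. Cd86 runs from 53.8 to 80.5 CPM in mTEChi AireKO against 1.22 to 3.73 in mTEClo AireKO, and Sparc runs the other way, from 1.65 to 3.70 against 98.7 to 140.

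Genes of MHC class II presentation rose in part. Among 17 list members tested, 7 rose, 1 fell and 9 were not called, with a median log2 fold change of 0.76, beside 18.4% higher, 16.6% lower and a median of 0.00 over all genes tested. Ciita, the transactivator that switches the class II genes on, measured 436, 454, 272 and 158 CPM in mTEClo replicates 1 to 4 and 1136, 1060, 776 and 828 CPM in mTEChi. The groups did not overlap, the 6-week mTEClo libraries were the lowest, and the log2 fold change was 1.62 ± 0.15 (SE, with an edgeR adjusted p of 4.76e-10). H2-Ob, a chain of the H2-O molecule that restrains peptide loading, rose most, from 38.3, 39.2, 31.7 and 36 to 253, 272, 273 and 288 CPM, by 2.92 ± 0.13 (SE, with an edgeR adjusted p of 1.48e-16). Its partner H2-Oa rose by 2.29, the peptide loading chains H2-DMb1 and H2-DMb2 by 1.46 and 1.35, the protease Ctss by 2.07 and the promoter-binding factor Rfx5 by 1.49. Summed myeloid and dendritic markers, cells that carry class II as well, went from 173 to 211 CPM in mTEClo AireKO to 552 to 610 CPM in mTEChi AireKO, and their part in these rises was not tested.

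Surface MHC class II protein defined the sort, and transcripts of the classical class II chains moved less. H2-Aa, the I-A alpha chain, lay at 531, 613, 327 and 302 CPM in mTEClo and 713, 694, 582 and 679 CPM in mTEChi, a difference of 0.65 ± 0.16 (SE, with an edgeR adjusted p of 0.0012) that did not reach 2-fold. The lowest mTEChi library, replicate 3, lay below the highest mTEClo library, replicate 2, so the groups overlapped. H2-Ab1, H2-Eb1 and the invariant chain Cd74 had log2 fold changes of 0.60, 0.58 and 0.49. The member that fell was Ctsl, the protease of cortical epithelial antigen processing, from 299.9, 325, 260.4 and 251 to 30.8, 19.4, 20.9 and 35.1 CPM, with a log2 fold change of -3.43 ± 0.15 (SE, with an edgeR adjusted p of 7.74e-17). This fall was steeper than in WT, where it was -1.78, with an interaction of -1.64 (adjusted p = 9.51e-08).

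Class II promoters carry a conserved module that binds the RFX factors, and its last box holds an inverted CCAAT sequence bound by NF-Y. Promoter windows of the RefSeq table (GRCm38.p6, 250 bases before to 50 after each start) were searched for CCAAT on both strands (the reverse complement is ATTGG). Of the 15 windows of 13 list genes in the table, 10 (66.7%) held it, beside 37.4% of all 32851 windows. The windows of H2-Aa (chr17:34287774-34288073, minus strand), H2-Eb1 (chr17:34305617-34305916, plus strand) and H2-DMb1 (chr17:34152941-34153240, plus strand) are shown because these genes cover the sorted surface molecule, a second classical chain and a loading chain that rose, and capitals mark CCAAT or ATTGG. A match describes the letters only and is not evidence of binding.
H2-Aa: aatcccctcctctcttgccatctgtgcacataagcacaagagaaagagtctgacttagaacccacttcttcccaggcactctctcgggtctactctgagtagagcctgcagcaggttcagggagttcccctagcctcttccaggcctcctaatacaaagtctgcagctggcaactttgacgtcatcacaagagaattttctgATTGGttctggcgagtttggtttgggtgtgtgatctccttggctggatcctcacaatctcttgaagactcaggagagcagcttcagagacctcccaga
H2-Eb1: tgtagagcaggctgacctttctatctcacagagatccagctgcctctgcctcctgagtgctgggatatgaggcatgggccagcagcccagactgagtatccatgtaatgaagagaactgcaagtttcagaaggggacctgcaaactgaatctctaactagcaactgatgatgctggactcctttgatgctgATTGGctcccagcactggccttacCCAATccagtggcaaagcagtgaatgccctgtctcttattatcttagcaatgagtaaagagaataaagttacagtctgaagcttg
H2-DMb1: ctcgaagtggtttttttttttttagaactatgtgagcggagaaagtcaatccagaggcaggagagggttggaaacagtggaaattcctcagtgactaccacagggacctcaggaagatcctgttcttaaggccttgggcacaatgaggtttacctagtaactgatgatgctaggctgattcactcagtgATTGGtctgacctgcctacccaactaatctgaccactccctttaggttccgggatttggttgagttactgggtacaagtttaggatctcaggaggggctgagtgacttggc

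In MHC class I presentation, 4 of 13 members rose and none fell, with a median of 0.43, where 18.4% of all genes tested rose and 16.6% fell. The risers were the immunoproteasome subunits Psmb8 and Psmb10, the proteasome activator Psme2 and the peptide loader Tapbp, with log2 fold changes of 1.07, 1.05, 1.04 and 1.12, all near the 2-fold limit. The heavy chains H2-K1 and H2-D1 had log2 fold changes of 0.26 and 0.36. From replicates 3 and 4 alone, 1 member was called, and with library size alone as the scaling none was, with a median of 0.30.

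Ligands of T cell costimulation showed large rises, with 8 of 12 members higher, none lower and a median of 2.20. Replicates 1 and 2 alone gave a median of 1.63 and replicates 3 and 4 alone 2.57. Cd86 (chr16:36603869-36666081, minus strand), a ligand of CD28 and CTLA-4, lay at 3.24, 3.73, 1.47 and 1.22 CPM in mTEClo and 53.8, 59, 80.5 and 74.6 CPM in mTEChi. Every mTEChi library was more than 10 times above every mTEClo library, and the log2 fold change was 5.04 ± 0.26 (SE, with an edgeR adjusted p of 2.41e-15). Cd80, the second CD28 ligand, rose from 36.1, 39.2, 13.8 and 19.9 to 115, 137, 137 and 154 CPM without overlap, by 2.45 ± 0.19 (SE, with an edgeR adjusted p of 1.25e-11). Its change in WT was 3.36, and the interaction of -0.92 (adjusted p = 0.00586) missed the 2-fold limit.

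The receptor CD40, which receives the CD40 ligand of T cells, rose by 2.04, and the TNF family ligands Cd70 and Tnfsf9 by 3.34 and 2.72. Icosl, the ligand of ICOS, rose by 2.36 and the adhesion molecule Icam1 by 1.07. Transcripts of the inhibitory receptor Ctla4 were found at 10.2, 11.8, 14.1 and 23.8 CPM in mTEClo and 93.3, 109.6, 176 and 147 CPM in mTEChi, and rose by 3.13. Tnfsf4, which encodes OX40 ligand, was not called: it lay at 2.16, 1.87, 1.17 and 0 CPM in mTEClo and 0.868, 0.809, 1.68 and 0.825 CPM in mTEChi, with overlap and a log2 fold change of -0.07, whereas it rose by 2.67 in WT (interaction -2.73, adjusted p = 0.0043).

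Genes of TNF receptor and NF-kB signalling rose in 13 of 22 cases and fell in 2, with a median of 1.15. Relb, the subunit of the noncanonical pathway that mTECs need to develop, lay at 165, 187, 105 and 74.2 CPM in mTEClo and 449.9, 406, 311 and 346 CPM in mTEChi and rose by 1.58 ± 0.16 (SE, with an edgeR adjusted p of 1.15e-09). Its partner precursor Nfkb2 rose by 1.16, the kinase Map3k14 (NIK) by 1.09 and Rel by 1.79. Tnfrsf11a, which encodes RANK, rose by 1.37, and Tnfrsf11b, which encodes the RANK ligand decoy osteoprotegerin, by 2.44. The call for Tnfrsf11a was lost in replicates 1 and 2 alone, where the log2 fold change was 0.92. Rela and Nfkb1, subunits of the canonical pathway, had log2 fold changes of 0.37 and 0.32.

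The adaptor Traf1 moved most among the risers, from 57.7, 50.4, 63.4 and 49.9 to 401, 391, 302 and 323 CPM. Its libraries did not overlap between fractions, its log2 fold change was 2.65 ± 0.11 (SE, with an edgeR adjusted p of 7.34e-17), and it rose more than in WT (interaction 1.20, adjusted p = 3.67e-07). The fallers were the adaptor Traf5 (-2.99) and Tnfaip3 (-1.60), which encodes the NF-kB inhibitor A20. Of the regulators of apoptosis, 8 of 16 rose and 1 fell, with a median of 1.03. They included the survival genes Bcl2l1 (2.10), Bcl2a1b (2.68) and Bcl2a1d (2.02), the last pair being near-identical paralogs whose reads may be split between them, and the death genes Bax (1.28), Fas (1.54), Pmaip1 (1.47), Bik (1.23) and Bmf (1.39). The faller was Bcl2, with a log2 fold change of -1.35.

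Chemokine genes split in direction, with 12 of 22 higher, 4 lower and a median of 1.67. Ccl22, a ligand of CCR4 that attracts thymocytes, lay at 1.08, 1.24, 15.9 and 0.243 CPM in mTEClo and 24.7, 63.5, 31 and 31.8 CPM in mTEChi, and mTEClo replicate 3 stood above the other mTEClo libraries. The libraries did not overlap and the log2 fold change was 2.90 ± 0.51 (SE, with an edgeR adjusted p of 2.06e-05), below the 5.35 of WT (interaction -2.45, adjusted p = 0.0162), and the interaction was 0.34 and not called without replicate 3. Its relative Ccl17 rose by 2.61, the CXCR2 ligands Cxcl1 and Cxcl2 by 2.82 and 3.42, Ccl5 by 2.93 and Ccl25, the CCR9 ligand, by 1.60.

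Rises that exceeded those of WT were seen for Ccl20, the CCR6 ligand (1.92 against 0.35), Ccl9 (2.20 against 0.23) and the CXCR3 ligands Cxcl10 (1.80 against 0.80) and Cxcl11 (2.23 against 1.07). The interaction adjusted p-values were 0.00215, 0.00389, 1.25e-05 and 0.00187, and that of Cxcl10 stood at the 2-fold limit (1.00) and lost its call under several alternatives. Ccl21a, the chemokine that draws positively selected thymocytes into the medulla, fell from 40.5, 39.2, 23.2 and 20.2 to 5.64, 7.68, 9.43 and 8.66 CPM, with a log2 fold change of -1.87 ± 0.25 (SE, with an edgeR adjusted p of 2.1e-07), and it has near-identical copies in the mouse genome, so its level is uncertain. Cxcl12 and Cxcl14 fell by more: Cxcl12 lay at 56.6, 70.9, 147 and 162 CPM in mTEClo and 2.6, 2.02, 3.37 and 4.54 CPM in mTEChi, and Cxcl14 at 70.1, 75.9, 60.5 and 72.2 and 0, 1.62, 0.337 and 2.47. Their log2 fold changes were -5.11 and -5.95, against -2.10 and -2.69 in WT, and both interactions were called (adjusted p = 3e-09 and 4.58e-06). Xcl1, a chemokine for dendritic cells that Aire is known to control, was at 0, 0, 0 and 0 CPM in mTEClo and 0.434, 0, 0 and 0 in mTEChi, too few counts for a fold change.

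**Figure D2:**
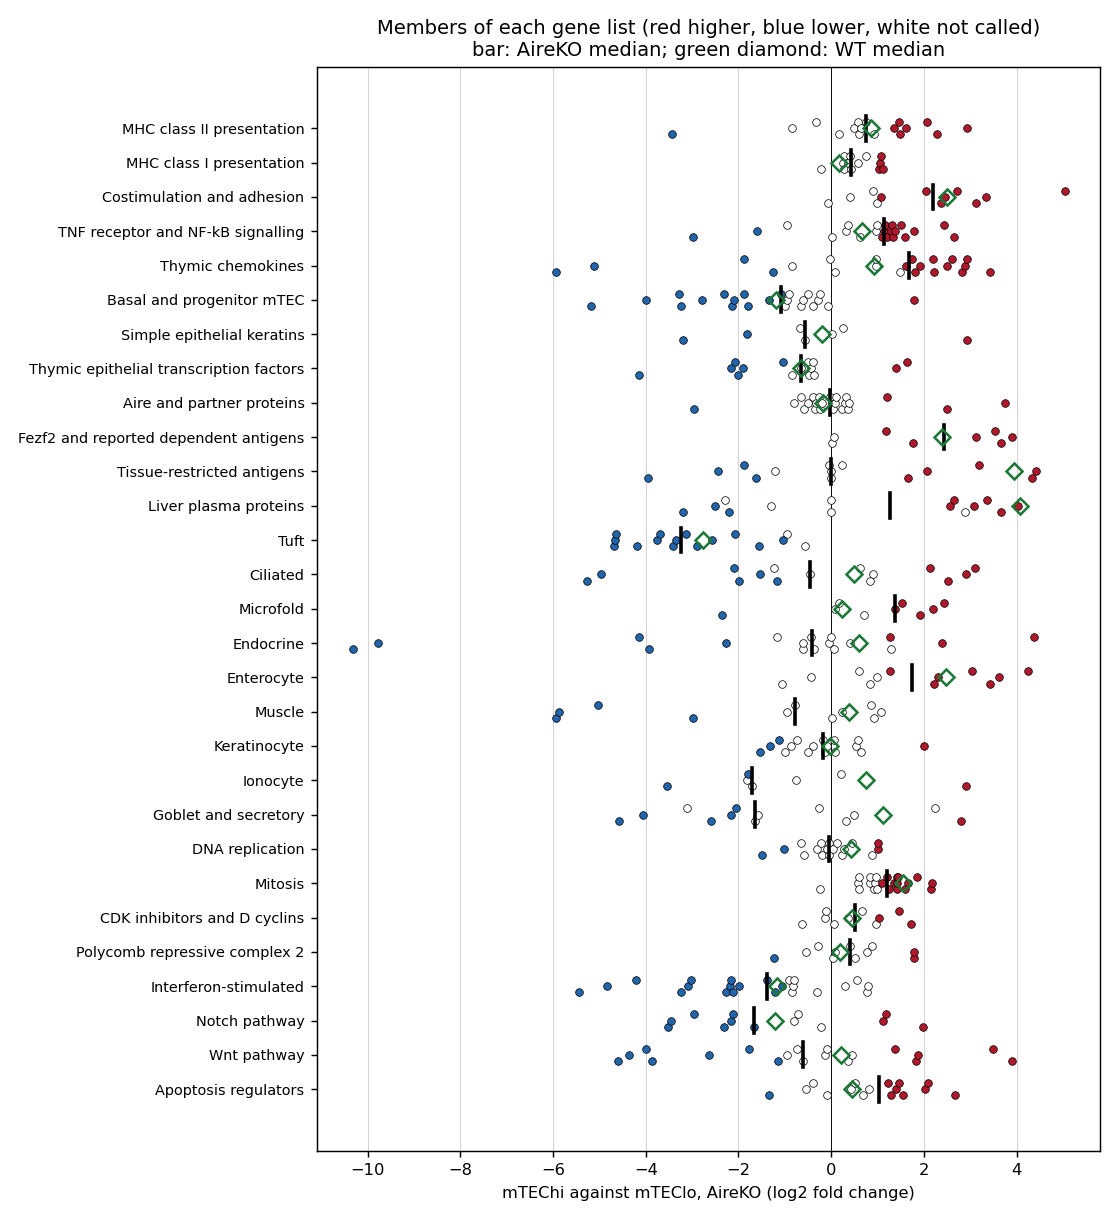
Median log2 fold change of mTEChi over mTEClo for each of 29 gene lists, with a bar for AireKO and a diamond for WT. Costimulation (2.20 in AireKO) and Fezf2 genes (2.44) stand at the high end and tuft genes (-3.24) at the low end in AireKO. Medians are from the fit of all adult libraries, and that of the Fezf2 genes was 1.43 in the 8 AireKO libraries alone.

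Genes of basal and progenitor mTECs fell, 12 of 23 members with 1 riser and a median of -1.08. Krt14 and Krt5, the basal keratin pair, went from 423, 458, 319 and 280.2 to 96.7, 82.9, 73.7 and 75.9 CPM and from 662, 709, 415 and 384 to 104, 127, 91.3 and 105 CPM. No mTEChi library reached the mTEClo range for either keratin, and the log2 fold changes were -2.15 ± 0.14 (SE, with an edgeR adjusted p of 1.66e-13) and -2.30 ± 0.17 (SE, with an edgeR adjusted p of 4.29e-12). Other falls were those of Fst, an activin inhibitor, at -5.19, of Lifr, a cytokine receptor chain, at -3.99, of the laminin chain Lamb3 at -2.80 and of Pdpn, which encodes podoplanin, at -3.24. Trp63, the transcription factor of stratified epithelium, fell, with a log2 fold change of -1.35. Krt15 fell in AireKO (-3.27) but was not called in WT (0.55), with an interaction of -3.83 (adjusted p = 1.39e-06). The riser was Col17a1, a hemidesmosome collagen, at 1.78.

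Among simple epithelial keratins, Krt8 and Krt18 had log2 fold changes of 0.24 and 0.03, Krt19 and Krt7 fell (-3.20 and -1.82) and Krt20 rose (2.93). Of 15 thymic epithelial transcription factors, 2 rose and 6 fell. The risers were Foxn1, from 160.2, 146, 99.2 and 92.7 to 409.5, 351, 266 and 272 CPM, and Tbx1 (1.63), whose call was lost under library size alone, DESeq2 and without replicate 2, 3 or 4. The fallers were Hoxa3 (-4.14), Pax1 (-2.16), Eya1 (-2.07), Klf5 (-2.00), Grhl2 (-1.90) and Klf4 (-1.05), of which Hoxa3, Pax1 and Eya1 pattern the pharyngeal pouch from which the thymus forms.

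Notch genes fell in 7 of 13 cases and rose in 3, with a median of -1.66. The ligand Jag2 lay at 416, 422, 361 and 278 CPM in mTEClo and 44.7, 37.2, 22.2 and 26.4 CPM in mTEChi, a fall that separated the fractions fully and had a log2 fold change of -3.53 ± 0.17 (SE, with an edgeR adjusted p of 4.44e-16). The receptor Notch3 (-2.12), the ligands Dll1 (-2.95) and Dll3 (-2.16) and the target genes Hes1 (-2.31), Hey1 (-3.46) and Heyl (-1.66) fell too. The risers were the ligand Dll4 (1.18), the receptor Notch4 (1.97) and the DNA-binding partner Rbpj (1.11). Dll4 rose less than in WT, where it was 2.63 (interaction adjusted p = 4.61e-05), and its AireKO call was lost in replicates 1 and 2 alone. Rbpj lost its call when libraries were scaled by their size alone.

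Wnt genes were mixed, with 5 of 19 higher, 7 lower and a median of -0.61. The ligands Wnt3 and Wnt10b rose (3.89 and 1.82), as did the nuclear effector Tcf7 (3.50), the feedback inhibitor Axin2 (1.38) and the receptor Fzd1 (1.86). The ligands Wnt5a, Wnt7b and Wnt4 fell (-4.00, -2.64 and -1.78), as did the receptors Fzd2 and Fzd7 (-4.60 and -1.14). Lgr6, a receptor for R-spondins, fell from 4.32, 3.73, 9.98 and 8.76 to 0, 0, 0.673 and 0.412 CPM, a change of -4.36, whereas it rose by 1.12 in WT. The interaction for Lgr6 was -5.48 (adjusted p = 1.18e-07).

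Interferon-stimulated genes fell in 14 of 23 cases, rose in none, and had a median of -1.39. Ifit3, which encodes an RNA-binding antiviral protein, lay at 30.2, 28.6, 38.5 and 52.3 CPM in mTEClo and 0.434, 1.62, 1.35 and 1.65 CPM in mTEChi. The fractions did not overlap and the log2 fold change was -4.83 ± 0.29 (SE, with an edgeR adjusted p of 5.52e-14). The fallers also included Oas2, a sensor of double-stranded RNA (-5.44), Ifi44 (-4.20), the RNA sensor Ddx58, also called RIG-I (-3.03), Isg15 (-2.19) and the transcription factor Irf7 (-1.99). Rsad2, which encodes viperin, had a log2 fold change of -3.08 in AireKO and 0.04 in WT (interaction adjusted p = 3.12e-06). Members that were not called included Irf1 (0.79) and Mx1 (0.29).

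Tuft cell genes were the list with the deepest median, -3.24, with 14 of 16 members lower and none higher. Trpm5 (chr7:143069153-143094642, minus strand), the taste transduction channel of tuft cells, lay at 677, 478, 719 and 592 CPM in mTEClo and 79, 40.4, 66.7 and 58.6 CPM in mTEChi. The lowest mTEClo library, replicate 2, was above 6 times the highest mTEChi library, and the log2 fold change was -3.35 ± 0.16 (SE, with an edgeR adjusted p of 5.67e-16). The other taste signalling genes Gnat3 (-4.68), Plcb2 (-3.68) and Gnb3 (-2.57), the master regulator Pou2f3 (-2.07), the cytokine Il25 (-4.64), Dclk1 (-4.19), Avil (-3.40) and the acetylcholine enzyme Chat (-4.67) fell. In WT 14 members fell as well, with a median of -2.76, and the interaction was called for Chat and Dclk1 (adjusted p = 3.45e-05 and 1.92e-06). In bulk libraries, fewer cells of a type and less RNA per cell cannot be told apart, which holds for tuft genes and for every list before and after them.

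Of the genes of other tissues that mTECs transcribe, some rose without Aire, some fell and some were close to 0. Fezf2, a transcription factor that drives a set of tissue genes apart from Aire, lay at 160.2, 161, 121 and 119.9 CPM in mTEClo and 339, 308, 281 and 327 CPM in mTEChi, a rise of 1.18 ± 0.12 (SE, with an edgeR adjusted p of 2.36e-09). Of Fezf2 and 7 genes reported to depend on it, 6 rose and none fell, with a median of 2.44, and 6 rose in WT, with a median of 2.39. The filter on low counts took in the WT libraries. In a fit of the 8 AireKO libraries alone, 6 of these genes were tested, of which 4 rose and none fell, at a median of 1.43. Replicates 1 and 2 alone gave 4 risers, at a median of 2.03. Ttr, the thyroid hormone carrier, went from 1.62, 0, 1.76 and 0.486 to 14.3, 25.1, 7.41 and 13.6 CPM, with all mTEChi libraries above the mTEClo ones. Apoc3, Calb1, Fabp9 and Resp18 rose by 3.91, 3.53, 3.12 and 1.76.

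Of 14 tissue-restricted antigens tested, 5 rose and 4 fell, with a median of -0.00. The median was 0.24 once members with almost no counts were set aside and 0.90 with the filter of 10 counts in every library of a group. In WT 12 rose and none fell (23.7% and 12.4% of all genes tested did). Genes were filtered over all adult groups, so a member near 0 in AireKO could be kept through its level in mTEChi WT. The same filter applied to every list. In a fit of the 8 AireKO libraries alone, 8 members were tested, of which 5 rose and 2 fell, at a median of 1.825. Thyroglobulin (Tg) lay at 4.32, 0, 1.47 and 1.7 CPM in mTEClo and 44.7, 59.4, 32 and 35.9 CPM in mTEChi and rose by 4.41 ± 0.34 (SE, with an edgeR adjusted p of 6.69e-12), against 5.27 in WT, and the interaction was not called. The caseins Csn2 and Csn3 rose by 2.06 and 4.34, the GABA-synthesizing enzyme Gad1 by 3.19 and the myelin gene Mbp by 1.66. Another casein, Csn1s1, went the other way, from 2.16, 0.622, 2.94 and 4.86 to 0, 0.404, 1.01 and 1.24 CPM, a change of -1.89 on few counts, and rose by 4.60 in WT (interaction adjusted p = 8.03e-08). Insulin (Ins2) and the urinary protein Mup4 had 0 counts in all 8 AireKO libraries, which allows up to 3 counts in each fraction, where mTEChi WT held 10.6 ± 4.02 and 4.72 ± 2.97 CPM (SD, n = 7), so no fold change is given in AireKO. The cardiac myosin Myh6 (-3.95) and the retinal gene Sag (-2.45) fell in AireKO, each with a called interaction (adjusted p = 1.65e-06 and 5.92e-05).

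Liver plasma protein genes split in the same manner, with 6 of 14 higher and 3 lower, against 13 higher and none lower in WT. The same filter applied, and in a fit of the 8 AireKO libraries alone 6 members were tested. Of these, 5 rose and 1 fell, at a median of 2.83. The apolipoproteins Apoa2 (4.03), Apoh (3.36), Apob (3.08) and Apoa1 (2.56), the clotting inhibitor Serpinc1 (2.65) and Ttr rose. Fibrinogen and albumin did not: Fga and Fgg were at 0 in all 8 AireKO libraries, Fgb had counts in mTEClo replicate 3 alone at 0.587 CPM, and Alb in mTEClo replicate 4 alone, while in mTEChi WT Fgb reached 26.1 ± 7.25 CPM and Alb 20.6 ± 4.74 CPM (SD, n = 7). Over all 14 the fitted median was 1.28, and with 5 such genes set aside the median was 2.65. Transferrin (Trf) fell from 131, 164, 9.1 and 15.6 to 9.54, 12.9, 11.8 and 13.6 CPM, with a log2 fold change of -2.21 ± 0.60 (SE, with an edgeR adjusted p of 0.00225), and the 5-week mTEClo libraries stood far above mTEChi while the 6-week ones lay around its level. Its call was lost without replicate 2 (-1.55) and in replicates 3 and 4 alone (0.01).

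Mimetic programmes other than tuft went in different directions. Enterocyte genes rose in 7 of 12 cases with none lower, at a median of 1.75: the transcription factor Hnf4g rose by 2.32, the lipid transfer gene Mttp by 3.04 and Apoa4 by 4.26. In a fit of the 8 AireKO libraries alone, 7 enterocyte genes were tested, of which 5 rose and none fell, at a median of 3.00. Microfold cell genes rose in 5 of 9 cases and fell in 1, at a median of 1.37. The list includes Ccl20, Ccl9 and Tnfrsf11b, risers already described with the chemokine and TNF receptor genes, so these counts are not separate. The microfold factor Sox8 lay at 8.63, 6.84, 10.3 and 12.4 CPM in mTEClo and 32.5, 29.5, 20.5 and 23.1 CPM in mTEChi and rose by 1.37 ± 0.24 (SE, with an edgeR adjusted p of 1.33e-05), against -0.25 in WT (interaction adjusted p = 0.000102). Spib, which directs microfold cells, had a log2 fold change of 0.17, and Gp2, a receptor of mature microfold cells, fell (-2.36).

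Ciliated cell genes split, with 4 of 15 higher and 6 lower at a median of -0.45 that turned to 0.52 without replicate 4 and to 0.84 in a fit of the 8 AireKO libraries alone. Foxj1, the master regulator of motile cilia, lay at 9.17, 8.09, 9.69 and 6.81 CPM in mTEClo and 59.9, 43.7, 44.1 and 47.4 CPM in mTEChi, a rise of 2.52 ± 0.36 (SE, with an edgeR adjusted p of 7.42e-07) without overlap. Trp73, which also drives multiciliated cells, went the opposite way, from 21.6, 21.2, 25.2 and 21.2 to 0.434, 0.404, 1.68 and 0 CPM, with a log2 fold change of -4.96 ± 0.43 (SE, with an edgeR adjusted p of 9.84e-11). In WT, Foxj1 and Trp73 had 0.57 and 0.62, neither called, and both interactions were called (1.95, adjusted p = 0.000962, and -5.58, adjusted p = 2.52e-09). Hydin and Dnah9, structural genes of the axoneme, rose by 2.92 and 2.13, and Rsph1 and Dnah5 fell, with log2 fold changes of -2.00 and -2.10.

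Endocrine genes fell in 5 of 18 cases and rose in 3, where 16.6% and 18.4% of all genes tested did. In a fit of the 8 AireKO libraries alone, 11 members were tested, of which 2 fell and 3 rose, at a median of -0.09. The hormone Sst (somatostatin) lay at 55, 0.622, 109 and 53.8 CPM in mTEClo and at 0 in all 4 mTEChi libraries, at least 185-fold lower against a floor of 3 counts over the 4 libraries, with mTEClo replicate 2 near 0 as well. Scg2, a granule protein, lay at 11.3, 16.2, 50.5 and 74.7 CPM in mTEClo and at 0 in mTEChi, at least 129-fold lower. The granule genes Chgb and Scg3 fell, with log2 fold changes of -4.14 and -2.26, while Tph1, the serotonin enzyme, and the neuroendocrine factor Insm1 rose by 4.39 and 2.39.

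Goblet and secretory genes fell in 5 of 13 cases and rose in 1. In a fit of the 8 AireKO libraries alone, 4 members were tested, of which 3 fell and none rose, at a median of -3.36. The airway protein Bpifa1 went from 60.4, 213, 84 and 121 to 10.4, 8.89, 5.39 and 2.89 CPM, with a log2 fold change of -4.06 ± 0.43 (SE, with an edgeR adjusted p of 4.02e-09), with no overlap between fractions, and had 0.76 in WT (interaction adjusted p = 4.78e-08). The goblet regulator Spdef fell (-2.05) and Tff2, a trefoil peptide, rose by 2.81, a call that was lost without replicate 1, 3 or 4. Muscle genes fell in 4 of 11 cases and rose in none: alpha-actin Acta1 went from 105, 39.2, 27.6 and 67.1 to 1.74, 0.809, 0.673 and 0.412 CPM, a log2 fold change of -5.94 ± 0.45 (SE, with an edgeR adjusted p of 4.96e-12), and Actc1 (-5.03), Myl1 (-5.87) and the muscle regulator Myog (-2.97) fell too. Replicates 3 and 4 alone gave 2 risers and 3 fallers with a median of -0.095, and replicates 1 and 2 alone no riser and 5 fallers with a median of -1.35. Keratinocyte genes showed 1 riser, Grhl3 (2.01), and 3 fallers among 17, Cnfn (-1.53), Dsc1 (-1.32) and Ivl (-1.12), where 16.6% of all genes tested fell. Replicates 1 and 2 alone gave 3 risers and no faller, and replicates 3 and 4 alone 1 riser and 4 fallers. Of 7 ionocyte genes, Slc26a4 rose (2.91) and the regulator Foxi1 (-3.54) and the proton pump subunit Atp6v1b1 (-1.79) fell, and the list's median of -1.71 turned to 0.11 without replicate 3 and to 1.52 in the 8 AireKO libraries alone.

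**Figure D3:**
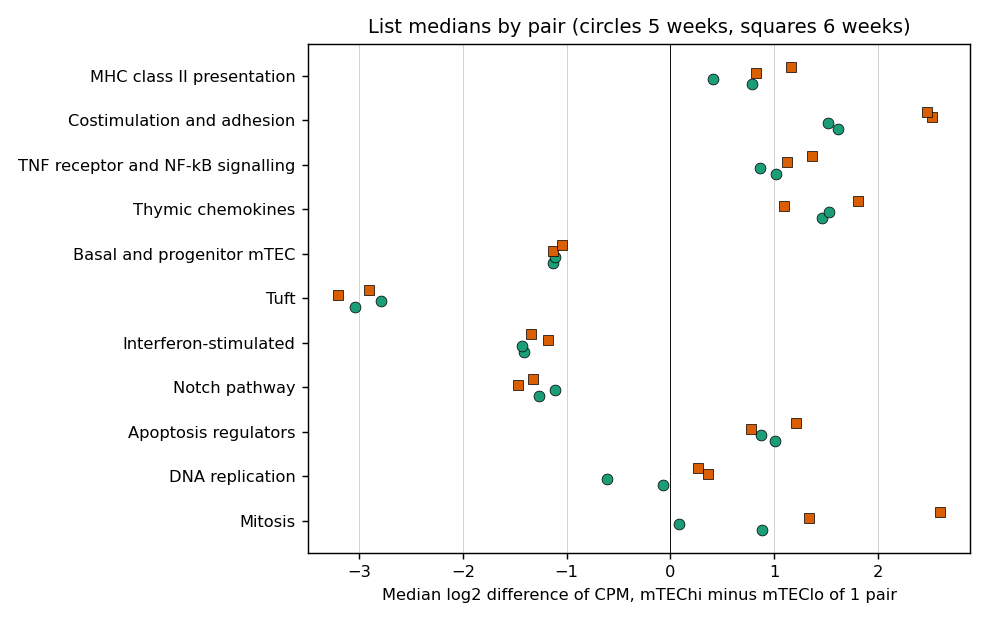
Median log2 difference of mTEChi over mTEClo within each AireKO replicate pair for 11 gene lists, with 5-week pairs (1 and 2) and 6-week pairs (3 and 4) in separate colours. The mitosis medians are 0.88 and 0.09 in pairs 1 and 2 and 1.33 and 2.60 in pairs 3 and 4.

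Cell cycle genes split by phase and by pair. Mitosis genes rose in 13 of 23 cases with none lower, at a median of 1.22, whereas DNA replication genes rose in 2 and fell in 2 of 18, at a median of -0.05. That median joined unlike pair sets. For DNA replication, replicates 3 and 4 alone gave 4 risers and 2 fallers, at a median of 0.23. Replicates 1 and 2 alone gave no riser and 3 fallers, at -0.38. Of all genes tested, 18.4% rose and 16.6% fell. Cdk1, the mitotic kinase, lay at 21.6, 29.9, 6.16 and 2.68 CPM in mTEClo and 69.8, 69.5, 39.1 and 43.7 CPM in mTEChi. The 6-week libraries were lower in both fractions, mTEChi was above mTEClo in all 4 pairs, and the log2 fold change was 2.19 ± 0.26 (SE, with an edgeR adjusted p of 2.85e-08). Mki67, the proliferation marker, was lower at 6 weeks in both fractions too, with 97.1, 163, 25 and 11.2 CPM in mTEClo and 109, 129, 69.4 and 82.5 CPM in mTEChi, overlap between the fractions and a log2 fold change of 0.85 ± 0.31 (SE, with an edgeR adjusted p of 0.0186) that was not called.

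From the 6-week pairs alone, 22 of 23 mitosis genes rose, at a median of 2.21, and from the 5-week pairs alone 5 rose, at a median of 0.38. The difference between the pair sets was called for 211 of all genes (1.09%), 0.632% with the larger change at 6 weeks, and for 8 of the 23 mitosis genes, all in that direction. Within mTEClo, 22 of the 23 were called lower at 6 weeks than at 5 weeks (3.05% of all genes were), and within mTEChi 3 of the 23 were (0.565%). Other lists differed by pair set too. The larger change at 6 weeks was called for 3 of 12 costimulation genes and 2 of 18 DNA replication genes, and the reverse for none. Within mTEClo, 3 of the 12 and 10 of the 18 were called lower at 6 weeks. In mTEClo the libraries of the 2 ages also differ in kind, so age and kind cannot be told apart there. In WT all 23 mitosis genes rose, at a median of 1.54. The spindle checkpoint kinase Bub1b (2.16), the chromosomal passenger kinase Aurkb (1.85), the ubiquitin-conjugating enzyme Ube2c (1.59) and cyclin B1 (Ccnb1, 1.43) were among the risers over all pairs.

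Promoters of mitotic genes often hold a cell cycle homology element, TTTGAA, near CCAAT boxes. Of 19 mitosis genes with a window in the table, 14 (73.7%) held TTTGAA or its reverse complement TTCAAA, beside 17.9% of all windows, and 16 (84.2%) held CCAAT. In the class II list 6.67% of windows held TTTGAA. The windows of Cdk1 (chr10:69352863-69353162, minus strand), Ccnb2 (chr9:70421505-70421804, minus strand) and Bub1b (chr2:118597961-118598260, plus strand) are shown because they stand for members that rose and, in Ccnb2, for a member called in the 6-week pairs but not over all pairs, and capitals mark TTTGAA or TTCAAA.
Cdk1: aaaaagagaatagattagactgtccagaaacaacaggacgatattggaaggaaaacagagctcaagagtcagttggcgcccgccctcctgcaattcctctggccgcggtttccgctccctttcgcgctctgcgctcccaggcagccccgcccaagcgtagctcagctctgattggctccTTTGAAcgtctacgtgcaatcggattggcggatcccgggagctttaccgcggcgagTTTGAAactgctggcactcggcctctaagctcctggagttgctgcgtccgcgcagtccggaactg
Ccnb2: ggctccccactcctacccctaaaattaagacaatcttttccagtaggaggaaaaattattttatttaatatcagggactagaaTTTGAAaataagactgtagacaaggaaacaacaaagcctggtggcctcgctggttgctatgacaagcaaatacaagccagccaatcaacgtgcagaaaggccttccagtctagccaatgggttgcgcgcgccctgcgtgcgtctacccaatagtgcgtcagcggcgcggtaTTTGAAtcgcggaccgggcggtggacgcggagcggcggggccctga
Bub1b: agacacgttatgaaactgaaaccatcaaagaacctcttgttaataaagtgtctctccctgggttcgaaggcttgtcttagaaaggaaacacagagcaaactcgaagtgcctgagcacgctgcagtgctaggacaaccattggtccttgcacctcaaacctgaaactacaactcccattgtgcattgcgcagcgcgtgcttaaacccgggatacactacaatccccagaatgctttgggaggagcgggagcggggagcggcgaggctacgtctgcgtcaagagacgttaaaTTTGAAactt

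Of 10 CDK inhibitors and D cyclins, 3 rose and none fell. Cdkn2a, which encodes p16 and p19ARF, rose by 1.72, Cdkn2b by 1.46 and Cdkn2c, near the 2-fold limit, by 1.02, and 2 members were called with library size alone as the scaling or with no replicate block. Of 11 subunits of Polycomb repressive complex 2, which marks silenced chromatin, 2 rose and 1 fell, where 18.4% and 16.6% of all genes tested did. The core genes Eed, Suz12 and Ezh2 had log2 fold changes of 0.08, 0.04 and 0.78, the accessory genes Phf19 and Aebp2 rose by 1.78 and 1.79, and Mtf2 fell (-1.23). Among 22 proteins reported to work with Aire, Sirt1, a deacetylase that acts on Aire, rose from 105, 139, 96 and 112 to 626, 641, 605 and 645 CPM, by 2.49 ± 0.14 (SE, with an edgeR adjusted p of 5.49e-15), in AireKO and by 2.93 in WT. The topoisomerase Top2a rose by 1.22, and Xrcc5, the Ku80 subunit, fell (-2.97), while the others were not called.

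The largest rises among protein-coding genes with stable pairs were led by Tlr12 (chr4:128615443-128618619, minus strand), a Toll-like receptor for profilin, at 2.7, 3.11, 0.587 and 0.73 CPM in mTEClo and 72.9, 67.9, 52.5 and 47.4 CPM in mTEChi. Its fractions were far apart in every pair, and its log2 fold change of 5.30 ± 0.27 (SE, with an edgeR adjusted p of 1.74e-15) exceeded the 2.57 of WT (interaction 2.73, adjusted p = 4.58e-06). Eomes, a T-box factor best known from lymphocytes, lay at 1.62, 1.24, 1.76 and 0.486 CPM in mTEClo and 32.5, 38, 43.4 and 40.8 CPM in mTEChi. Blk, a Src family kinase of B cells, went from 4.32, 3.73, 3.52 and 1.7 to 102, 108, 69 and 66.4 CPM. Eomes and Blk rose by 4.99 and 4.70, and the other leaders, Amdhd1, Erv3, Itih1, Timd2, Anxa10 and Myot, rose by 4.77 to 4.88. Cd86, above, completed the leading 10 of 1476 eligible genes.

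Lox, an enzyme that crosslinks collagen, lay at 91.2, 96.4, 147 and 187 CPM in mTEClo and 0.868, 2.83, 0.673 and 2.89 CPM in mTEChi, with a log2 fold change of -6.17 ± 0.33 (SE, with an edgeR adjusted p of 3.57e-15). Sparc (chr11:55394500-55423183, minus strand), a secreted matrix protein, lay at 98.7, 115, 136 and 140.3 CPM in mTEClo and 2.17, 2.02, 3.7 and 1.65 CPM in mTEChi. Both genes were separated widely in every pair. The fall of Sparc was -5.63 ± 0.18 (SE, with an edgeR adjusted p of 4.01e-19) in AireKO against -0.47 in WT, where mTEChi held 78.7 ± 7.65 CPM (SD, n = 7).

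The remaining leaders were Fat3, an atypical cadherin (-6.03), Myl9, a myosin light chain (-5.86), Gas1 and Boc, coreceptors of hedgehog signalling (-5.83 and -5.32), Dpp6, a potassium channel subunit (-5.54), Adam28, a metalloprotease (-5.42), Ryr1, a calcium release channel (-5.28), and Antxr1, a collagen-binding receptor (-5.23), of 1351 eligible genes. Ryr1 in mTEClo was at 133, 116, 32 and 27.2 CPM and was higher at 5 than at 6 weeks, while mTEChi lay at 1.3, 1.62, 2.36 and 1.65 CPM. In WT Ryr1 had a log2 fold change of -0.41.

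**Figure D4:**
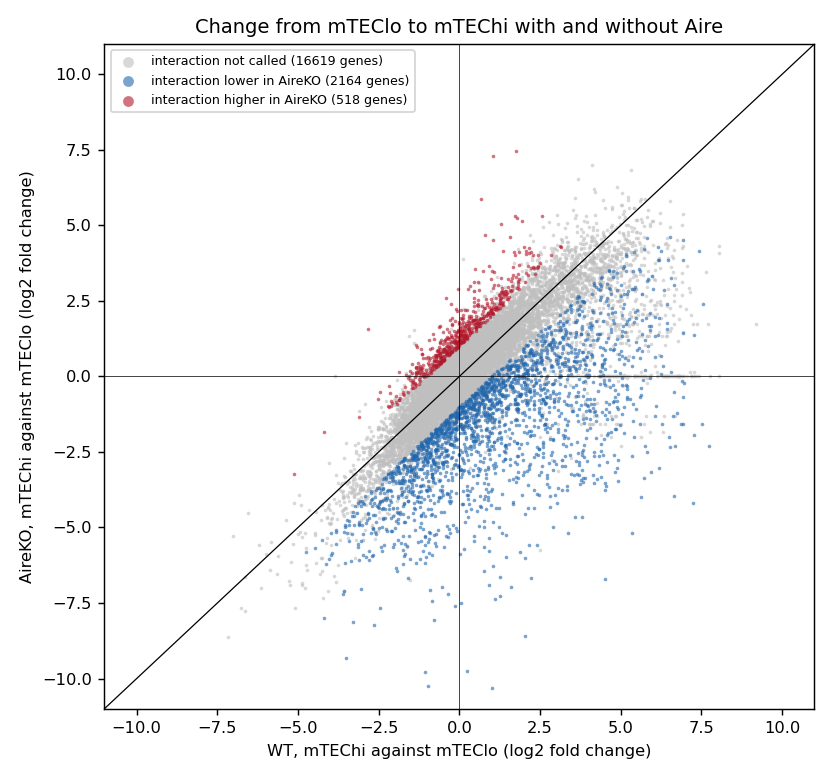
Log2 fold change of mTEChi over mTEClo in AireKO (vertical) against that in WT (horizontal), each point a gene, with genes coloured where the interaction was called. More coloured points lie below the diagonal (2164 genes) than above it (518 genes).

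Maturation in AireKO was compared with maturation in WT by the interaction of genotype and fraction. It was called for 2682 genes (13.9%, where 36.1% were called for WT maturation), 518 (2.68%) with the change more upward in AireKO and 2164 (11.2%) with it more downward. Scaling by library size alone gave 322 upward and 2528 downward, and DESeq2 442 and 2570. The AireKO and WT comparisons share no libraries. Of the 3558 genes that rose in AireKO, 2714 (76.3%) rose in WT, which is 59.4% of the 4571 that rose in WT, and of the 3207 that fell in AireKO, 1895 (59.1%) fell in WT, which is 78.9% of the 2402 WT fallers. Of the 4571 WT risers, 1662 (36.4%) were not called in AireKO, 682 of them with a called interaction, and 195 fell in AireKO. A single gene rose in AireKO and fell in WT. Rises of at least 16-fold numbered 304 in AireKO and 1021 in WT, and falls of that size 402 and 65. With male WT libraries only, the interaction was called for 2325 genes. Every mTEChi AireKO library is of the kind without mitochondrial counts and every WT library of the other, so the effects of genotype and of kind in mTEChi cannot be told apart.

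The genes with the clearest upward interaction were led by Lrp1b, a large endocytic receptor, at 31.8, 38, 31.4 and 37.7 CPM in mTEClo AireKO and 146, 160.1, 279 and 248 CPM in mTEChi AireKO. Its fractions were apart in all pairs, and it rose by 2.59 in AireKO against -0.41, not called, in WT (interaction 3.00 ± 0.16 SE, adjusted p = 4.94e-13). Psd3, Zmynd15 and Il18r1, the last a receptor chain for interleukin 18, rose in AireKO (1.85, 1.91 and 1.72) and had 0.43, 0.07 and 0.47 in WT. Ptpn14, Ltbp2, Cxcl16 and Atxn1 were called in neither genotype: they had 0.45, 0.82, 0.96 and 0.63 in AireKO and -0.97, -0.70, -0.41 and -0.96 in WT.

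On the downward side, Nrxn3, a neurexin of synapses, lay at 19.4, 20.5, 26.4 and 18 CPM in mTEClo AireKO and 0.868, 1.21, 0.673 and 1.65 CPM in mTEChi AireKO. It fell in AireKO, with a log2 fold change of -4.24, and rose by 1.66 in WT (interaction -5.90 ± 0.37 SE, adjusted p = 9.05e-12). Cacna2d2, a calcium channel subunit, Ucma, a cartilage matrix protein, and Grp, gastrin-releasing peptide, also fell in AireKO (-2.74, -1.57 and -1.83) and rose in WT (1.42, 2.65 and 2.00). Tnn, tenascin N, lay at 18.3, 6.22, 16.1 and 27 CPM in mTEClo AireKO and 0.434, 2.83, 3.03 and 4.95 CPM in mTEChi AireKO and had an interaction of -6.22. Fbln2, a matrix fibulin, lay at 46.4, 33, 37.9 and 33.1 CPM in mTEClo AireKO and had counts in a single mTEChi AireKO library, replicate 2 at 0.809 CPM, so no fold change is given, while mTEChi WT held 33.1 ± 7.35 CPM (SD, n = 7). Med10, also selected, is among the genes at 0 in every library of 1 kind and carries no information on maturation.

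The breadth of the transcriptome was compared at equal depth, as the expected number of genes with a count when each library is thinned to 1593686 counts. In AireKO, mTEChi libraries had 23652 ± 387 and mTEClo libraries 23624 ± 195 such genes (SD, n = 4 each), a difference of 27.5 (2-sided exact permutation test, p = 0.914, smallest possible 0.0286). In WT, mTEChi libraries had 28382 ± 367 (SD, n = 7) and mTEClo libraries 23540 ± 220 (SD, n = 8), a difference of 4842 (exact permutation p = 1.55e-04, the smallest that design can give). The AireKO gap minus the WT gap was -4814 genes (permutation of genotype within fraction, exact p = 7.96e-04), and -4688 with male WT libraries only (exact permutation p = 0.00408). This test of the gaps was added after the data were seen. With genes counted at 1 CPM or more, the AireKO difference was -341 (exact permutation p = 0.171).

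**Figure D5:**
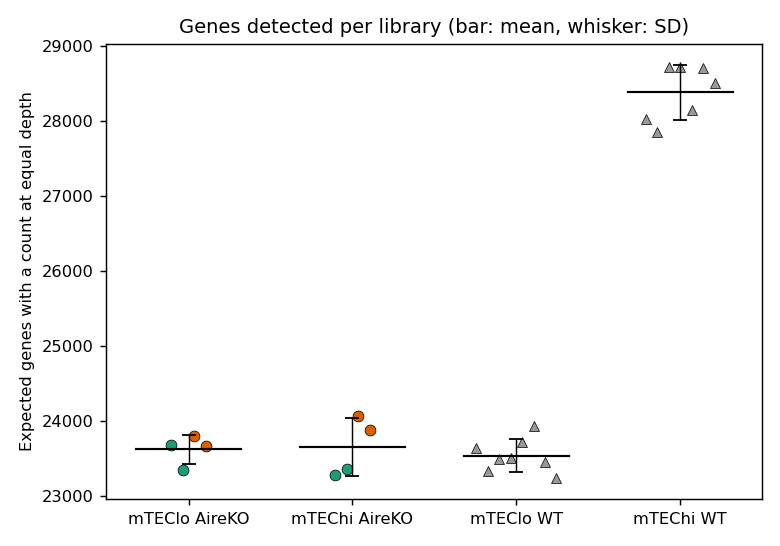
Expected number of genes with a count at 1593686 counts, 1 point for each adult library by genotype and fraction, with group means and SD. The mTEChi WT libraries stand apart at 27850 to 28723, while both AireKO fractions lie between 23281 and 24072.

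Markers of other cell types that a sort could let through were summed per library. Myeloid and dendritic genes rose in 5 of 9 cases, with summed levels of 552 to 610 CPM in mTEChi AireKO and 173 to 211 in mTEClo AireKO, and B cell genes in 3 of 4, at 103 to 144 and 21.8 to 37.0 CPM. Thymocyte genes rose in 2 and fell in 1 of 8, at 43.4 to 56.5 and 19.3 to 35.5 CPM. Endothelial genes rose in 2 and fell in 1 of 6, at 213 to 285 and 139 to 199 CPM, and the endothelial receptor Tie1 was at 0 in all 8 libraries. Mesenchymal genes rose in 3 and fell in 4 of 9, at 448 to 571 and 540 to 685 CPM, with rises in Lum (2.07), Pdgfrb (2.68) and Vim (1.16), falls in Pdgfra (16.7, 16.8, 15.3 and 11.7 to 0, 0.404, 0 and 0.412 CPM), Col3a1 (-5.00) and Acta2 (-4.36), and a fall in Col1a1 that was lost without replicate 3. The mesenchymal median of -0.14 turned to 0.59 without replicate 3. Cortical epithelial genes rose in 4 and fell in 3 of 8, at 1054 to 1161 and 497 to 695 CPM. Their part in the rises of class II presentation genes, costimulatory genes, Blk and Eomes and in the falls of Lox and Sparc was not tested.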

How the data were processed

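Per the labels, the authors sorted mTECs, made full-length RamDA-type libraries and sequenced them on Illumina and DNBSEQ instruments. The deposited values are raw read counts per Ensembl gene, which the authors made from reads trimmed by fastp 0.20.0 and mapped to mm10 by STAR 2.7.3a. Poorly mapped reads were filtered in SAMtools 1.9, duplicates were taken out in Picard 2.21.1, and HTSeq 0.11.2 counted without strand. The annotation release is not given in the sources used here. Removing duplicates without molecular identifiers flattens abundant genes. Floors cover counting error only, whereas SE and SD also take in the spread between libraries.

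The 37 mitochondrially encoded genes were left out. Genes passed filterByExpr, libraries were scaled by TMM, and edgeR 4.0.16 (R 4.3.3) fitted a quasi-likelihood model to the 23 adult libraries with group means and the AireKO replicate number as a block, adjusted by Benjamini-Hochberg over 19301 genes. Common dispersion was 0.0147, a biological coefficient of variation of 12.1%. The same-numbered AireKO libraries deviated together (correlations of 0.168, 0.202, 0.145 and 0.227 across genes), although libraries of 1 age did so in general, up to 0.286. WT numbers were not used as pairs. Fold changes used a prior count of 0.125. The script was tested on simulated data. Symbols and coordinates came from the GENCODE annotation of GRCm38, and promoters from RefSeq. The neonatal libraries were not analysed here.

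Members and lists were chosen with earlier results of these data known. List members may be named with their list. Beyond them, the named genes are the 10 largest rises and falls among called protein-coding genes without overlap, with at least 10 CPM in the higher fraction and over 3 counts in the lower, and at least a 2-fold change in both age sets, and the 8 smallest interaction p-values in each direction. Of the genes that go with library kind, all but Med10 and Ccl19 were chosen after their values were seen. Alternatives included DESeq2 1.42.0, other scalings and filters, single pairs left out, either age set alone, AireKO libraries only and male WT libraries only. AireKO libraries summed by fraction and age, the contrast of the age sets, and the test of the AireKO gap against the WT gap in genes detected were added after seeing the data.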

Additional observations from a re-analysis of the deposited data

Results flagged for a closer look

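Maturation differed between AireKO and WT for 2682 genes by the interaction test, and the gap in genes detected at equal depth differed by -4814 between the genotypes. Within AireKO, 211 genes differed between the 6-week and the 5-week pairs. Among the genes named by p-value, the interaction log2 fold changes of the upward genes were 3.00 for Lrp1b, 1.42 for Ptpn14, 1.53 for Ltbp2, 1.37 for Cxcl16, 1.60 for Atxn1, 1.25 for Il18r1, 1.84 for Zmynd15 and 1.42 for Psd3. The downward genes had -5.16 for Sparc, -5.90 for Nrxn3, -4.16 for Cacna2d2, -4.22 for Ucma, -3.84 for Grp and -6.22 for Tnn. The fitted values of -9.96 for Med10 and -8.53 for Fbln2 rest on groups at or near 0 and on the prior count, and are not sizes of change.

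Of 190 groups of 4 to 8 library values examined, 6 held a sample far from the rest by Dixon's criterion, which chance alone gives in about 1 of 20 groups. They were Ccl22 at 15.9 CPM and Trp73 at 25.2 CPM in mTEClo AireKO replicate 3, Fgb at 0.587 CPM in the same library, Ccnb2 at 11.5 CPM and Psmb8 at 76.4 CPM in mTEChi AireKO replicate 3, and Fbln2 at 0.809 CPM in mTEChi AireKO replicate 2. The values for Fgb and Fbln2 are 2 counts each.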

How the results depend on the processing

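Depth limits genes near 0 in AireKO, and 4 libraries a fraction of 2 ages and 2 kinds limit what pairs 1 and 2 add. The replicate block changed no list's direction: without it 6806, 6967 and 2634 genes were called for AireKO maturation, WT maturation and their interaction, against 6765, 6973 and 2682. With no minimum change the counts were 11380, 13993 and 5407. With no filter on low counts WT maturation gave 13829 genes, 76.3% of them higher against 65.6%. Leaving out 1 replicate gave 6573 to 6848, 7114 to 7345 and 2413 to 2589. Replicates 3 and 4 alone gave 6943 for AireKO maturation and replicates 1 and 2 alone 6054, where 27.1% of interaction calls were upward against 19.3%. The 8 AireKO libraries alone gave 5255, DESeq2 6724, and libraries summed by fraction and age 7048. Scaling by library size alone shifted the median log2 fold change by -0.12 in AireKO and -0.19 in the interaction, so 47.5% of AireKO calls were higher against 52.6%. Under the alternatives, 595 values of genes named by the rule kept their direction and call and 1, that of Med10 in replicates 3 and 4 only, lost its call. The rule had picked these genes for calls with large changes or small p-values in the same libraries. Their stability was therefore largely set by the selection and says nothing of other called genes. Of list medians, 369 moved by less than the spread and 95 by more, and the medians for ciliated, ionocyte, DNA replication, Aire partner, TEC identity, cortical epithelial, mesenchymal and thymocyte genes changed sign under at least 1 alternative. The difference in genes detected within AireKO ran from -54.8 to 171 with 1 replicate left out and was 9.73 at 1000000 counts. Why values moved was not tested.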
